A study of Homo sapiens with 6 samples.

Results

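Amino acid transporters of COV434 cells were examined by RNA-seq with and without BRG1 reexpression. COV434 is an established human line from an ovarian tumour that lacks BRG1, and it serves here as a model of SCCOHT, a rare hypercalcemic cancer of the ovary. The genes were SLC16A10, SLC7A1, SLC7A2, SLC7A3, SLC7A5, SLC7A6, SLC7A7, SLC7A8, SLC7A11 and SLC3A2, which are 10 of the 19899 genes in the deposited count table and were taken from it by symbol. All cells were parental COV434 cells that received a plasmid for puromycin resistance (pBABE-puro) together with either a control plasmid (pCDNA3-neo, Control, n = 3) or a BRG1 plasmid (PBJ5-BRG1, BRG1, n = 3). Puromycin at 2 to 3 µg/ml was started 24 hours after transfection and RNA was taken after 3 days, so that expression was transient and came from a selected mass of cells rather than from a clone. The labels call the samples biological replicates and number them 1 to 3 in each group.

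SLC16A10 was picked from the measured values, because it had 1 of the largest falls in this comparison. Its values are given here as a description with no test. The other 9 genes were named by function, with earlier results of these data known.

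Amino acids cross the plasma membrane through families of carriers that differ in substrate and in what they exchange. SLC7A1, SLC7A2 and SLC7A3 carry arginine, lysine and ornithine and work alone. SLC7A5, SLC7A6, SLC7A7, SLC7A8 and SLC7A11 are light chains, which reach the cell surface when bound by a disulfide bridge to the heavy chain SLC3A2 (CD98). SLC16A10, of the monocarboxylate transporter family, lets phenylalanine, tyrosine and tryptophan pass down their gradients and also carries thyroid hormone. Tumour cells commonly draw on SLC7A5 for leucine, which feeds the growth kinase mTORC1, and on SLC7A11 for cystine, from which glutathione is made.

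The promoters of the gene that fell most, the gene that rose most and the shared heavy chain are shown, from RefSeq on GRCh38.p14, reading 5′ to 3′ on the strand of the gene, as 300 bases around the annotated start. Of the 10 genes, 7 had an entry in the RefSeq promoter table. Capitals mark matches on either strand to TGATGNAA, the core of the element bound by the amino acid response factor ATF4, or to TGANTCA, the AP-1 element. The letters of both motifs did not overlap in these windows. SLC7A7 and SLC3A2 have several annotated starts, and counts per gene do not show which was used.
SLC16A10 (chr6:111087253-111087552, plus strand): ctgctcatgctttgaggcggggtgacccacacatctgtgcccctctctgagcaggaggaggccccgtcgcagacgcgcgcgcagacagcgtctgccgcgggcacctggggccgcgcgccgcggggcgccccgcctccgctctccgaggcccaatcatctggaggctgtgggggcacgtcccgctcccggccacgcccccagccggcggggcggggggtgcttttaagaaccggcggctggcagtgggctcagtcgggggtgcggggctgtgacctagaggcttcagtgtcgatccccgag
SLC7A7 (chr14:22819742-22820041, minus strand): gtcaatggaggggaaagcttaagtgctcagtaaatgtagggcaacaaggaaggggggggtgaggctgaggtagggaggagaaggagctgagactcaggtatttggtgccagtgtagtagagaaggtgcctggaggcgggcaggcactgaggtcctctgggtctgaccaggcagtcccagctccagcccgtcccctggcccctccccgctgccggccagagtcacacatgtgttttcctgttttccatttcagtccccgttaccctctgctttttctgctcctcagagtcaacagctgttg
SLC3A2 (chr11:62881449-62881748, plus strand): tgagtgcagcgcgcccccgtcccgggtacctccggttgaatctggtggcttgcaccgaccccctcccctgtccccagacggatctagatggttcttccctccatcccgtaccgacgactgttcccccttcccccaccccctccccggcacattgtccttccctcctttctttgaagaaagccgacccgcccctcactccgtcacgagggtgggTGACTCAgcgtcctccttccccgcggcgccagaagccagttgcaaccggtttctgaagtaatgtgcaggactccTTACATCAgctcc
The SLC3A2 window held 1 match to the AP-1 letters, whose first base lay 37 bases before the start, and 1 match to the ATF4 letters beginning 37 bases after it. It is shown for these matches, and the other 2 windows listed for SLC3A2, 1 of them at the annotated start of the gene, held 0 of either. The windows shown for SLC16A10 and SLC7A7 held 0 matches to either. Of the genes not shown, SLC7A1 had 1 match to the ATF4 letters in its window. Some windows of SLC7A8 held 1 match to the AP-1 letters, and those of SLC7A5 and SLC7A6 held 0 of either. Among 35116 RefSeq promoters of the same length, 3.62% held the ATF4 letters and 7.71% the AP-1 letters. A match of letters is a description and not a bound site.

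The libraries held between 29699741 and 63613710 estimated counts, BRG1 sample 3 being the shallowest. SMARCA4, which encodes BRG1, measured 1439, 1676 and 1538 normalised counts with the control plasmid and 108655, 79075 and 78589 with BRG1, plasmid transcripts included. A normalised count is an estimated count divided by the library's DESeq2 size factor. SMARCA2, the other SWI/SNF ATPase, stayed between 3.79 and 35.7. Of 5 granulosa cell markers, FOXL2 and FSHR held 3 counts or fewer in every library, INHA and AMH were present without being called, and CYP19A1 was called higher (means of 23.3 and 322 normalised counts). Their summed level ran from 291 to 470 in Control and from 638 to 921 in BRG1 samples. Of the markers of other cell types, 5 were of immune cells. Of these 2 had an adjusted p and 0 were called, while 2, CD3E among them, held 3 counts or fewer throughout. The summed immune level ran from 344 to 677 in Control and from 368 to 736 in BRG1 samples. PTPRC, the general leukocyte marker, was present at 336 to 722 normalised counts and made up most of that level. The summed fibroblast level ran from 1215 to 1343 and from 989 to 1322, with 0 of 4 called. Of 3 endothelial markers, VWF and CDH5 were called higher with BRG1, and the summed level ran from 25.6 to 91.6 in Control and from 3350 to 3936 in BRG1 samples. The part of the granulosa and endothelial shifts in the results below was not tested.

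SLC16A10 (ENSG00000112394.18) sits on the plus strand of chromosome 6, GRCh38 positions 111087503 to 111231194 (GENCODE release 44). In Control samples 1 to 3 it measured 361, 374 and 357 normalised counts, against 169, 175 and 170 in BRG1 samples 1 to 3. Every BRG1 sample lay below every Control sample, which the pick of SLC16A10 required and which is therefore no support. The same was so for 8.88% of the 18096 genes with a count. The BRG1 mean of SLC16A10 was 47.1% of its Control mean. The means were 364 ± 8.86 and 171 ± 3.33 (SD, n = 3), and DESeq2 put the log2 change at -1.09 (SE 0.17). Within replicate numbers the log2 fold was -1.09, -1.09 and -1.07, so that the fall was nearly the same size in each pair. Across the 11 alternatives it ran from -1.10 to -1.07. In RNA from bulk cultures, fewer cells expressing a gene and less RNA per cell cannot be told apart.

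The closeness of these values needs the counts behind them. SLC16A10 rested on 114 to 472 estimated counts per library, for which counting error alone is 4.60% to 9.37%. The coefficients of variation were 2.43% in Control and 1.94% in BRG1 samples, which is less than the counting error. The spread shown by these 6 samples therefore understates the error of each value. Exons on the other strand, of MFSD4B-DT, cover 1.58% of its exonic bases.

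Among the 286 genes called lower by DESeq2 with a mean of at least 100 normalised counts and no overlap between groups, SLC16A10 ranked 4 by fold change. Beside the limit of 5 that chose it stood TNFRSF10D at rank 5 (log2 fold change -1.06) and A2M at rank 6 (log2 fold change -0.95). Among all 294 genes called lower it ranked 10.

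Of 11685 other genes with a mean of at least 100 normalised counts, the 5 whose log2 values followed SLC16A10 most closely over the 6 samples were ACO1, RAB40B, ATP5J, RPL6 and INSIG1. Pearson's r was 0.9945 for ACO1 and 0.9921 for INSIG1, the first and last of the 5. ACO1, the cytosolic aconitase that also binds iron-responsive RNA elements, averaged 3186 ± 138 normalised counts with the control plasmid and 1761 ± 41.7 with BRG1 (SD, n = 3). INSIG1, which holds back sterol synthesis, had 1557 ± 102 and 905 ± 19.0. Each of the 5 was lower in BRG1 samples with little spread inside a group, as their choice by correlation with SLC16A10 required. A correlation does not measure the size of a fall, and their log2 fold changes ran from -0.86 (ACO1) to -0.24 (ATP5J). These likenesses are a description over 6 samples that share 2 groups and their library depths.

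**Figure D1:**
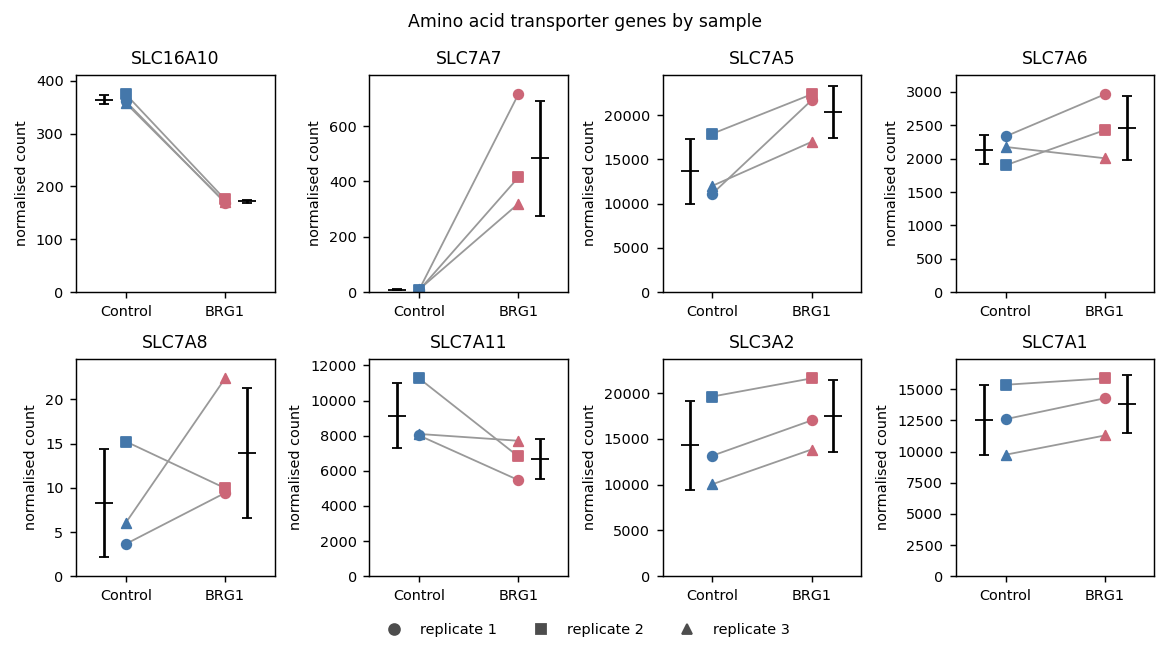
Normalised counts (linear axis from 0) of the 8 transporter genes with an adjusted p, in Control and BRG1 samples. Grey lines join samples with the same replicate number, and black bars give the mean ± SD (n = 3). SLC16A10 falls to 47.1% of Control in a tight cluster, SLC7A7 rises from under 10 counts, and SLC3A2 and SLC7A1 shift less than their samples differ from each other.

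Whether the other transporters changed was read from the DESeq2 fit across all genes, in which a gene was called at a Benjamini-Hochberg adjusted p under 0.05. Of the 9 genes other than SLC16A10, 7 had an adjusted p, and 1 was called higher (SLC7A7) and 0 lower (1 lower at an unadjusted p under 0.05). Of 16002 genes tested, 11.0% were called higher and 1.84% lower. The count of members called higher was thus near the share among all genes. The median log2 fold change was 0.29 among the 7 and -0.01 among all genes tested. By edgeR, which called 9.57% of all genes higher and 1.02% lower, SLC7A7 was called higher and 0 of the 7 lower.

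The replicate numbers pair the samples. Deviations from the group means correlated at 0.52, 0.52 and 0.61 between Control and BRG1 samples of the same number. Once the replicate number entered the model as a block, DESeq2 called 13.4% of all genes higher and 6.61% lower, and of the 7 it called 3 higher (SLC7A7, SLC7A5 and SLC3A2) and 1 lower (SLC7A11). With the block edgeR called 13.7% of all genes higher and 5.68% lower, and of the 7 it called SLC7A7 and SLC7A5 higher and 0 lower.

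**Figure D2:**
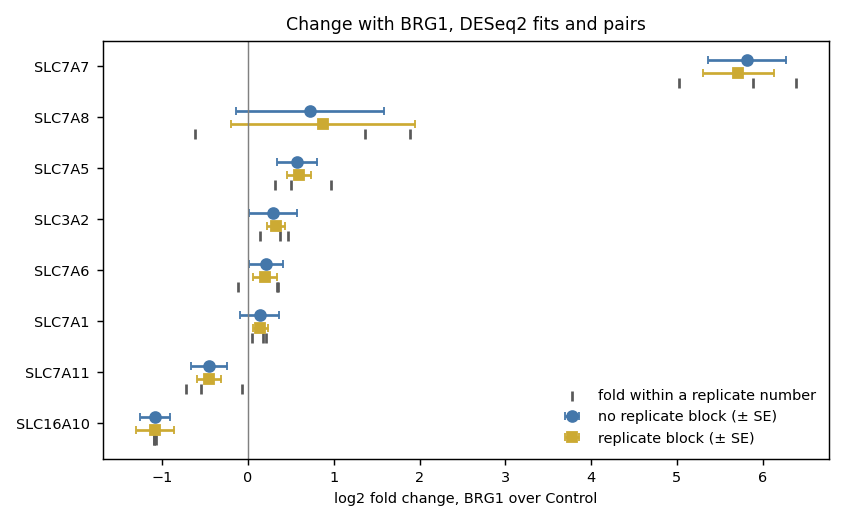
Log2 fold change of BRG1 over Control for the same 8 genes, from DESeq2 without (circles) and with (squares) the replicate block, each with its standard error, and the fold within each replicate number (grey ticks). SLC7A7 stands at 5.82 and SLC16A10 at -1.09, while the circles of the other 6 lie between -0.45 and 0.72 and the squares between -0.45 and 0.87.

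SLC7A7 (ENSG00000155465.21, chromosome 14, 22773222 to 22829820, minus strand) showed the largest change of the 10. It encodes the light chain y+LAT1, which exports arginine and lysine in exchange for neutral amino acids and sodium, and whose loss causes lysinuric protein intolerance. It measured 8.53, 7.04 and 9.84 normalised counts with the control plasmid and 714.5, 414.5 and 319 with BRG1. The groups did not overlap, and the BRG1 samples differed among themselves, sample 1 being the highest. Among genes with a count, 15.4% were higher in every BRG1 than in every Control sample.

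The fitted log2 change of SLC7A7 came to 5.82 (SE 0.46), at an adjusted p by DESeq2 of 4.5e-35. The edgeR adjusted p was 0.000147. The mean rose 57.0-fold, and by 83.8-, 58.9- and 32.5-fold within replicate numbers. Control values rested on 6 to 13 estimated counts, for which counting error is 27.7% to 40.8%, so the fold is known less well than the level reached. SLC7A7 is known from macrophages and from gut and kidney epithelium. Of the 5 immune markers 2 had an adjusted p and 0 were called, and the source of the rise was not tested. No exonic base was shared with another gene (0%).

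The main leucine carrier shifted less. SLC7A5 (LAT1, chromosome 16, 87830023 to 87869507) measured 11117, 17896 and 12011 normalised counts with the control plasmid and 21676, 22347 and 16973 with BRG1. Control sample 2 lay above BRG1 sample 3, so the groups overlapped, whereas each BRG1 sample exceeded the Control sample of its number. The fitted log2 change came to 0.57 (SE 0.23), at an adjusted p by DESeq2 of 0.0901, which did not pass. With the replicate block it was 0.59 (DESeq2 adjusted p 0.000159, edgeR adjusted p 0.0165). The call without the block turned on 1 library: the DESeq2 adjusted p was 0.000632 without Control sample 2 and 0.0295 without BRG1 sample 3. A gene on the other strand covers 5.69% of its exonic bases.

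SLC7A11 (xCT, chromosome 4, 138164097 to 138242349), which takes up cystine in exchange for glutamate, leaned the other way. It measured 8012, 11261 and 8097 normalised counts with the control plasmid and 5473, 6816 and 7711 with BRG1. Every BRG1 sample lay below every Control sample, sample 3 of the BRG1 group narrowly. Among genes with a count, 8.88% were lower in every BRG1 than in every Control sample. Within replicate numbers the log2 fold was -0.55, -0.72 and -0.07, the smallest in the pair with the shallowest library. The fitted log2 change came to -0.45 (SE 0.21), at an adjusted p by DESeq2 of 0.182. Blocking on the replicate number gave adjusted p-values of 0.0104 by DESeq2 and 0.0539 by edgeR. When Control sample 2 was left out the unblocked value was -0.275. SLC7A11-AS1 on the other strand covers 8.97% of its exonic bases, and without strand the reads of both cannot be told apart.

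The heavy chain followed SLC7A5 in direction. SLC3A2 (chromosome 11, 62856004 to 62888880, plus strand) measured 13163, 19625 and 10047 normalised counts with the control plasmid and 17016, 21607 and 13839 with BRG1. The groups overlapped widely, while within replicate numbers the log2 fold was 0.37, 0.14 and 0.46. The log2 fold change was 0.29 (95% interval -0.26 to 0.85, DESeq2 adjusted p 0.677). With the block it was 0.32 (DESeq2 adjusted p 0.0120, edgeR adjusted p 0.0602). Without the block it fell to 0.09 when Control sample 3 was left out and rose to 0.59 when Control sample 2 was.

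The other light chains did not pass in any of the 4 fits. SLC7A6 (y+LAT2, chromosome 16, 68264516 to 68301823) measured 2333, 1901 and 2175 normalised counts with the control plasmid and 2963, 2427 and 2006 with BRG1, rising in replicates 1 and 2 and not in 3. Its log2 fold change was 0.21 (95% interval -0.18 to 0.59, DESeq2 adjusted p 0.667). Exons of genes on the other strand, SLC7A6OS among them, cover 55.6% of its exonic bases, so its value is uncertain in libraries without strand. SLC7A8 (LAT2, chromosome 14, 23125295 to 23183674), a carrier of neutral amino acids, measured 3.66, 15.2 and 6.06 normalised counts with the control plasmid and 9.43, 9.97 and 22.4 with BRG1. At 3 to 15 estimated counts per library, no change in SLC7A8 was detectable at this depth (log2 fold change 0.72, 95% interval -0.97 to 2.42).

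Among the carriers of cationic amino acids, SLC7A1 was the one with more than a few counts. SLC7A1 (CAT1, chromosome 13, 29509414 to 29595688) measured 12605, 15366 and 9752 normalised counts with the control plasmid and 14283, 15879 and 11296 with BRG1. Sample 2 was the highest and sample 3 the lowest in both groups. Its log2 fold change was 0.14 (95% interval -0.30 to 0.58, DESeq2 adjusted p 0.848), or 0.15 with the block (DESeq2 adjusted p 0.295). SLC7A2 (chromosome 8, 17497088 to 17570573) had at most 5 estimated counts in any library and SLC7A3 (chromosome X, 70925579 to 70931125) at most 1, and DESeq2 gave neither an adjusted p. No fold is given for SLC7A2 and SLC7A3.

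Levels were compared between genes as normalised counts per kb of the GENCODE canonical transcript. In Control the order was SLC3A2 (7575 ± 2592), SLC7A5 (3001 ± 808), SLC7A1 (1712 ± 382), SLC7A11 (946 ± 192), SLC7A6 (342 ± 35.0), SLC16A10 (33.8 ± 0.82) and SLC7A7 (4.07 ± 0.67 per kb, SD, n = 3). SLC7A8 stood below them at 1.96 ± 1.44, and SLC7A2 and SLC7A3 were near 0. With these lengths the lowest SLC3A2 sample (5330) stayed above the highest SLC7A5 sample (3928), but with all exonic bases as length SLC7A5 (2870 ± 773) stood above SLC3A2 (2234 ± 764 per kb, SD, n = 3) and their samples overlapped. With canonical lengths, of the neighbours in this order SLC7A7 and SLC7A8 alone overlapped among the 8. In BRG1 samples the order of the 5 most abundant genes was the same. SLC7A7 then stood at 232 ± 99.0 per kb, above SLC16A10 at 15.9 ± 0.31, and its samples (153 to 343 per kb) overlapped those of SLC7A6 (321 to 474 per kb), which they did not with all exonic bases as length.

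The make-up of the light chains was described as each gene's share of the summed normalised counts per kb of the 5 light chains. SLC7A5 took 66.9%, 72.7% and 68.8% in Control and 77.4%, 79.1% and 74.5% in BRG1 samples. SLC7A11 took 22.8%, 21.6% and 21.9% in Control and 9.24%, 11.4% and 16.0% in BRG1 samples. Its share was lower in every BRG1 sample and its mean fell by 9.89 percentage points. SLC7A7 took at most 0.123% in Control and 5.59%, 3.21% and 3.07% in BRG1 samples. Shares sum to 100%, so a rise in one lowers the others. The size of the SLC7A7 share depends on the transcript length used: its difference between groups was 3.85 percentage points with canonical lengths, and 1.61 when all exonic bases were counted as length. SLC3A2 per kb stood at 1.74 ± 0.30 times the summed light chains in Control and at 1.60 ± 0.22 times in BRG1 samples (SD, n = 3), and the samples of both groups overlapped. With all exonic bases as length that ratio was 0.54 ± 0.09 and 0.51 ± 0.07 (SD, n = 3), so whether it lies above or below 1 depends on the length used.

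**Figure D3:**
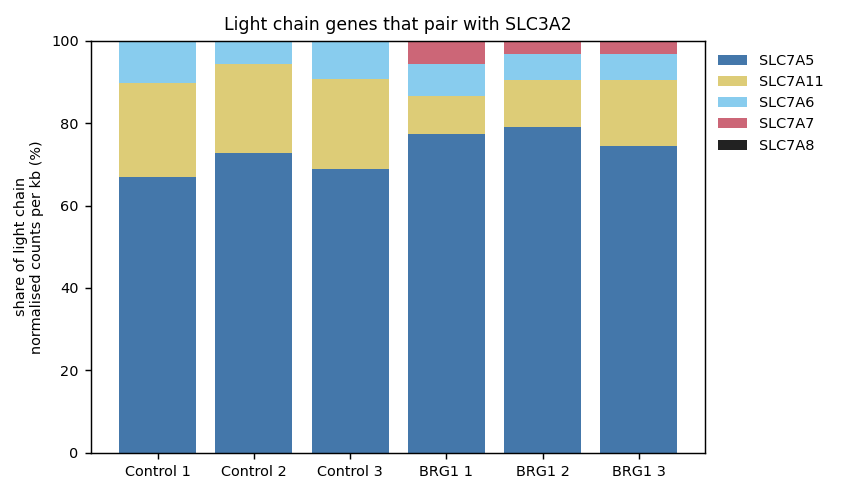
Share (%) of each light chain gene in the summed normalised counts per kb of the 5 light chains, 1 stacked bar per sample. SLC7A5 takes the most in every sample, the SLC7A11 share is 22.1% on average in Control and 12.2% in BRG1 samples, and SLC7A7 is visible only in the BRG1 bars.

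Genes around these carriers were read from the same fit in 9 further lists of 198 genes. Of the 173 with an adjusted p, 15 were called higher (8.67%, against 11.0% of all genes) and 0 lower (against 1.84%). At an unadjusted p under 0.05, 6 were lower, and by edgeR 12 passed upward and 0 downward. The 173 had a median of 0.04 on the log2 scale. With the block DESeq2 called 25 higher and 11 lower and edgeR 22 and 10. Of all genes tested with the block, DESeq2 called 13.4% higher and 6.61% lower, and edgeR 13.7% and 5.68%. Those shares, and not the unblocked ones, belong beside the blocked counts of single lists below.

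Without the block few of the other transporters were called. Of the 12 measured SLC16 genes with an adjusted p, SLC16A12, a creatine carrier, was called (1 higher and 0 lower by DESeq2 and by edgeR, 1 lower at an unadjusted p under 0.05). It had at most 1 count in a Control library and 76.2, 37.4 and 29.9 normalised counts in BRG1 samples, at least 15.2-fold higher against a floor of 3 counts per library. SLC16A7 was called lower by edgeR with the block, and is named after its values were seen. The list of other plasma membrane amino acid transporters also held some carriers of other membranes or substrates. Of its 26 genes with an adjusted p, 2 were called higher and 0 lower (1 lower at an unadjusted p under 0.05, 0 by edgeR). SLC36A1, which moves small neutral amino acids with protons, rose by 0.70 on the log2 scale (DESeq2 adjusted p 0.00516, edgeR adjusted p 0.0447), and the glutamate carrier SLC1A2 rose at least 6.60-fold from the floor. SLC1A2 was not tested by edgeR. With the block 6 of these carriers were called higher by DESeq2 and 1 lower, SLC43A2, named after its values were seen (log2 fold change -0.43). By edgeR with the block 4 were called higher and 1 lower. Of the 6 remaining SLC7 and SLC3 genes 2 had an adjusted p and 0 were called, also at an unadjusted p under 0.05 and by edgeR.

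ATF4 drives carriers such as SLC7A11, SLC7A5 and SLC3A2 when amino acids run short. Its RNA measured 40777, 44935 and 29129 normalised counts with the control plasmid and 37460, 34760 and 30103 with BRG1, a log2 fold change of -0.17 (95% interval -0.57 to 0.24, DESeq2 adjusted p 0.772). ATF4 is largely controlled in translation, which RNA does not show. Of 28 genes of its list with an adjusted p, 5 were called higher and 0 lower, also 0 lower at an unadjusted p under 0.05 and by edgeR. The median over these 28 was 0.01 on the log2 scale without the block. With the block DESeq2 called 8 of the list higher and 0 lower, beside 13.4% of all genes called higher. By edgeR with the block 7 were higher and 0 lower, beside 13.7% of all genes called higher. The DESeq2 block added ATF3, CEBPB and SHMT2, named after their values were seen. VLDLR, a lipoprotein receptor, rose from 39.1 ± 9.24 to 556 ± 201 normalised counts (SD, n = 3, log2 fold change 3.82), and the stress gene NUPR1 from 58.4 ± 27.9 to 781 ± 119 (SD, n = 3, log2 fold change 3.76). JDP2, an AP-1 family repressor, rose by 1.00 on the log2 scale (DESeq2 adjusted p 0.0366, edgeR adjusted p 0.142, edgeR with the block 0.0135). Of 20 cytosolic aminoacyl-tRNA synthetases 1 was called higher and 0 lower (0 lower at an unadjusted p under 0.05 and by edgeR). It was WARS, the tryptophan enzyme, also known as interferon-induced, which rose from 3845 ± 1217 to 15627 ± 4481 normalised counts (SD, n = 3, log2 fold change 2.02). With the block LARS was called lower, and is named after its values were seen.

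Cystine taken up by SLC7A11 serves glutathione synthesis. The list read beside it held glutathione genes together with other targets of the transcription factor NRF2. Of its 17 genes 3 were called higher and 0 lower (1 lower at an unadjusted p under 0.05, 0 by edgeR). TXNRD1, a thioredoxin reductase, rose by 1.66 on the log2 scale (DESeq2 adjusted p 0.000290), GCLM, the modifier subunit of the first enzyme of glutathione synthesis, by 1.09 (DESeq2 adjusted p 0.0239, edgeR adjusted p 0.120, edgeR with the block 0.00117) and the heme carrier SLC48A1 by 0.55 (DESeq2 adjusted p 0.00508). With the block 6 of the 17 were called higher and 2 lower by DESeq2, the latter being GSR and GGCT, named after their values were seen. Among arginine and polyamine enzymes, 1 of 19 with an adjusted p was called higher and 0 lower (1 lower at an unadjusted p under 0.05, 0 by edgeR): SAT1, which acetylates polyamines, rose from 495 ± 115 to 2002 ± 895 normalised counts (SD, n = 3, log2 fold change 2.02). With the block ODC1, PRMT1 and GATM were called lower by DESeq2 (3 genes, named after their values were seen).

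In the path from amino acids to mTORC1, 0 of 34 genes were called by DESeq2 or by edgeR, while an unadjusted p under 0.05 was reached by 1 upward and 2 downward. With the block DESeq2 called 4 of them lower (MLST8, RRAGA, SESN1 and FNIP2) and edgeR 3, genes named after their values were seen. Their log2 fold changes with the block lay between -0.40 and -0.33. For substrates of SLC16A10, 2 of 15 genes with an adjusted p were called higher and 0 lower (0 lower at an unadjusted p under 0.05 and by edgeR). HPD, of tyrosine breakdown, had 0 counts in every Control library and 29.7, 19.1 and 11.9 normalised counts in BRG1 samples, at least 6.44-fold higher. SLC17A4, a thyroid hormone carrier, rose from 8.05 ± 4.32 to 59.8 ± 36.1 (SD, n = 3).

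**Figure D4:**
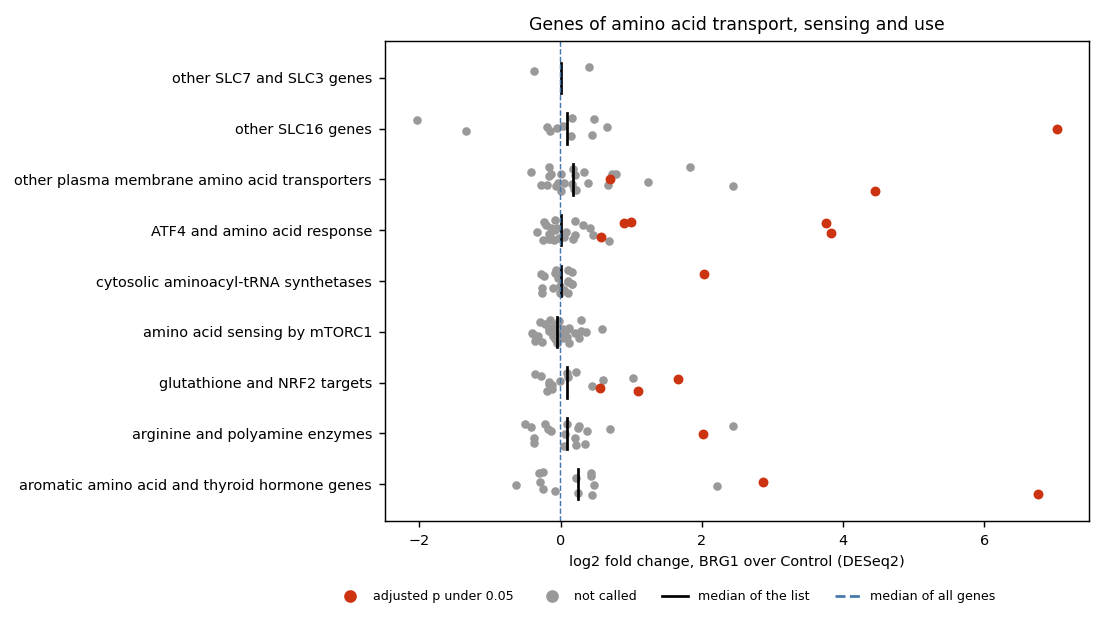
Log2 fold change of each gene with an adjusted p in the 9 further lists (DESeq2, BRG1 over Control), called genes in red, list medians as black bars and the median of all genes as a dashed line. All 15 called genes lie above 0, and the medians lie between -0.05 and 0.24.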

How the data were processed

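RNA-seq was performed on 3 Control and 3 BRG1 samples. Poly(A) libraries from 500 ng of RNA were made without strand and sequenced as pairs of 78 bases. The authors aligned reads with STAR 2.5.3a to hg38 with GENCODE annotation, quantified them with Salmon 0.8.2 and summed transcripts to genes with tximport. What the authors deposited is a table of estimated counts per gene (lengthScaledTPM), that is TPM put back on the scale of reads with gene length averaged over samples. These are not always integers and still carry each library's depth. Counts of near-identical or overlapping genes are shared out by a model and are uncertain.

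Estimated counts were rounded. All 19899 genes were fitted with the Wald test of DESeq2 1.42.0 in R 4.3.3 (BRG1 against Control, median-ratio size factors), the tool named by the study's methods, and adjusted over all genes. Empty adjusted p-values were left empty. Alternatives were the replicate number as a block, the edgeR 4.0.16 quasi-likelihood test with TMM factors with and without the block, TMM factors in DESeq2, a filter of 10 counts in 3 samples, and each library left out. The pairing was taken from the replicate numbers of the labels and checked by the correlation of same-numbered samples over 11686 genes (0.52, 0.52 and 0.61). Intervals are 95% Wald intervals for one gene. They and counting errors are not adjusted, and counting errors cover counting only.

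The fits were tested on simulated data with 200 changed genes and no replicate effect. False were 24.1% of the calls by DESeq2 and 26.2% with the block, well beyond the nominal rate. By edgeR they were 6.52%, and 8.11% with the block, also above it. The simulation changed 200 of 18096 genes, while DESeq2 called 2058 of 16002 in the real data. The share of false calls depends on how many genes change, so these percentages need not hold there. Since the simulated replicates were not paired, the simulation cannot judge what the block does in these data. Calls that DESeq2 alone made are therefore less certain. Members and lists were chosen with earlier results of these data known. From each further list up to 3 genes called in each direction were named, those with the largest change and a mean of at least 10 normalised counts, with ATF4, SMARCA4 and SMARCA2 always. Positions and lengths are from GENCODE release 44 on GRCh38, whose gene models differ from the release the authors counted with.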

Additional observations from a re-analysis of the deposited data

How the results depend on the processing

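Of the members, 1 was called higher, against 3 under the replicate block in DESeq2 and 2 under the block in edgeR. Members lower (1, SLC16A10, which was picked for this and counts as no support) were 2 with the block in DESeq2. Genes of the 9 further lists called higher (15) were 25 with the block. Those called lower (0) rose to 11 (DESeq2) and 10 (edgeR) under the block and to 1 under TMM factors (SLC43A2, named after its values were seen). All genes called lower (294) numbered 1035 (DESeq2) and 809 (edgeR) under the block, and 146 by edgeR unblocked. When each library was left out in turn, members called higher ran from 1 to 2 (2 without Control replicate 2 or BRG1 replicate 3), list genes called lower from 0 to 4 (1 without Control replicate 3, 4 without BRG1 replicate 3) and all genes called lower from 116, when BRG1 replicate 2 was left out, to 596, when BRG1 replicate 3 was. The cause was not tested. All genes called higher and members called lower stayed within 1.5 times of their counts in the other settings. The log2 fold change of SLC7A7 ran from 5.42 to 6.04 over the 11 alternatives and it was called in each. That of SLC7A1, never called, ran from -0.02 (without Control replicate 3) to 0.30, that of SLC7A6 from 0.06 (without BRG1 replicate 1) to 0.34 and that of SLC7A8 from 0.23 (without BRG1 replicate 3) to 1.46 (without Control replicate 2). Shares of light chains, whose alternatives were chosen after the data were seen, kept their direction in each. Without division by length the differences were 13.2 percentage points for SLC7A5, -14.1 for SLC7A11 and 1.56 for SLC7A7. Depth limits SLC7A2, SLC7A3 and SLC7A8, at 15 estimated counts or fewer per library.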
